A study of Mus musculus with 3 samples.

Results

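The cadherin and protocadherin genes were examined for peaks of the transcription factor Atoh7 in embryonic mouse retina. Members were the protein-coding mm10 RefSeq genes whose symbols begin with Cdh and a digit, or with Pcdh and a digit, a, b or g. There were 92 such genes among the 21627 that code for protein on the autosomes and X. The members comprised 18 classical cadherins (5 of type I and 13 of type II), 5 other Cdh genes, 12 single protocadherins and 57 clustered protocadherins on chromosome 18. A peak was given to a gene when its midpoint lay inside the gene or within 50 kb of either end. By this rule 12 of the 3668 deposited peaks belonged to the family, and 3 of the 92 genes had a peak inside them.

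The libraries were made by CUT&RUN, which releases DNA for sequencing by tethering a nuclease through an antibody to the protein of interest. C57Bl6/J retina at embryonic day 14 gave 2 Atoh7 libraries and 1 IgG library, and the labels do not tie these to animals. The 1 peak list used here holds positions and widths with no height and no value per library, so that depth per library is unknown, agreement of replicates could not be measured and no IgG background could be set beside a peak. Peaks lay within 50 kb of 24.4% of all protein-coding genes. Among short marker lists, they lay within 50 kb of 5 of 5 genes of neurogenic progenitors, 3 of 5 ganglion cell genes and 0 of 6 endothelial genes, the last including the member Cdh5, a count too small to set apart from that share.

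Cadherins are transmembrane proteins that hold cells together through calcium-dependent binding of their extracellular repeats. The classical type I and type II cadherins bind like partners on neighbouring cells and connect to actin through catenins, and in the developing retina they keep the neuroepithelium together and help neurites choose their layers. Protocadherins lack the catenin-binding tail of classical cadherins. The clustered ones are chosen so that single neurons carry different sets, in the Pcdha and Pcdhg clusters from arrays of alternative first exons. In retinal amacrine cells clustered protocadherins take part in self-avoidance of dendrites. Atoh7 is a basic helix-loop-helix protein, a family that binds the E-box, a short DNA motif written CANNTG.

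The RefSeq promoter windows used here (GRCm38.p6, 250 bases before to 50 after the transcript start) matched 22 of the 92 members with 25 windows. Cdh1, Cdh2, Cdh3, Cdh4, Cdh13 and the clustered genes had no window. Of the 25 member windows, 0 overlapped a peak. Of all 32619 windows, 898 (2.75%) did, so that 0 of 25 is near that share. The letters CANNTG, searched on both strands and allowing overlaps, were present in 15 of the 25 member windows (60.0%), against 72.3% of all windows. CAGATG (or CATCTG on the other strand) was present in 2 member windows (8.0%, against 17.1% of all) and CAGCTG in 3 (12%, against 16.4% of all). Both are forms of CANNTG, and a match in a window is a description of its letters only.

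Sequences of 4 windows are shown, 3 at members whose neighbourhood held a peak and 1 at a gene beside Cdh13 where a peak covered the window. Capitals mark CANNTG, and each sequence runs 5′ to 3′ along the strand of its gene. Pcdh15 (chr10:73821617-73821916, plus strand) has 3 E-boxes and no peak over the window. The annotated gene begins at 73096277, so this window lies well inside it, and its nearest peak was 566 kb away. Cdh23 (chr10:60696441-60696740, minus strand) has 1 E-box, and its nearest peak was 349 kb from the window. Cdh22 (chr2:165234688-165234987, minus strand) has 0, and its nearest peak was centred 14.2 kb from the middle of the window. Hsbp1 (chr8:119344288-119344587, plus strand) has 0, although 247 of the 300 bases lay in a peak.
Pcdh15: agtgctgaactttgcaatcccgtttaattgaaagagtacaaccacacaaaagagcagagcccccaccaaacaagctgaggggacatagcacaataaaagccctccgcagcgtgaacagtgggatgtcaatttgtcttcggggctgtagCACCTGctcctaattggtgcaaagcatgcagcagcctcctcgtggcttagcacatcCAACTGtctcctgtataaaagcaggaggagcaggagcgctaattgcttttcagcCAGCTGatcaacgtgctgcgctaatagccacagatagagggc
Cdh23: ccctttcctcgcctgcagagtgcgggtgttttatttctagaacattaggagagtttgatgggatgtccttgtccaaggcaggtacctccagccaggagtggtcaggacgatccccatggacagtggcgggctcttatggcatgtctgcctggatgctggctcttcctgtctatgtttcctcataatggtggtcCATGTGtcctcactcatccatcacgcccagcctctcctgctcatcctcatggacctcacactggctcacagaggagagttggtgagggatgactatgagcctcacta
Cdh22: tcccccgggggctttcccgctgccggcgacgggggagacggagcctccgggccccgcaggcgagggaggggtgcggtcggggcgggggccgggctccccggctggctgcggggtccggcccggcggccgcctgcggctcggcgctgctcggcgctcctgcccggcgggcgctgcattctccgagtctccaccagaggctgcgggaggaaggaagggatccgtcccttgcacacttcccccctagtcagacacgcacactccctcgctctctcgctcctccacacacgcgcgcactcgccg
Hsbp1: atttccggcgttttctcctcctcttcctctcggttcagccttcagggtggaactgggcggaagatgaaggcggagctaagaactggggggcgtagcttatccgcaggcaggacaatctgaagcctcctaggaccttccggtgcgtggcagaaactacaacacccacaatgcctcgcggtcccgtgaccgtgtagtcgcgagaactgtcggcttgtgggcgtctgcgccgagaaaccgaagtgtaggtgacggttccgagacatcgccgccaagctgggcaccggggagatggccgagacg

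Among the classical type I cadherins, Cdh4 stood at the top of the family with 3 peaks, all inside the gene. Cdh4 encodes R-cadherin, named for the retina, and spans 457 kb of chromosome 2 (179442423 to 179899377). The first peak (179519096 to 179519308, 213 bp wide) was centred 76.8 kb from the low-coordinate end and also lay in the long noncoding RNA gene Gm52541, 2.95 kb from an end of it. The next (179694963 to 179695204, 242 bp) lay near the middle of the gene, 55.3% of the way along. The last (179852855 to 179853310, 456 bp) lay 46.3 kb from the high-coordinate end. The peaks were therefore spread along the gene and not gathered at its ends. The annotation used here gives gene ends but no exons, so exon and intron could not be told apart.

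Cdh1 and Cdh3 lie side by side on chromosome 8 and shared 1 peak between them. Cdh1 encodes E-cadherin of epithelia, and Cdh3 encodes P-cadherin, which is found in the retinal pigment epithelium. The peak (106569070 to 106569327, 258 bp) was centred 34.2 kb from Cdh1 and 12.3 kb from Cdh3, and lay in neither gene. Cdh15, the cadherin of muscle, had its nearest peak 139 kb away. Cdh2 encodes N-cadherin, the main classical cadherin of the neural retina, and its nearest peak was 551 kb from the gene (chromosome 18, 16588877 to 16809246).

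Of the 13 type II cadherins, 2 had a peak within 50 kb (15.4%, against 24.4% of all protein-coding genes). Inside the gene it was 0 of 13, against 7.17% of all protein-coding genes. The median length was 153 kb for type II, against 17.3 kb for all protein-coding genes. Among other genes the share with a peak inside rose with length. It was 5.44% from 10 to 50 kb, 14.8% from 50 to 200 kb, 33.1% from 200 to 500 kb and 47.7% over 500 kb. The count of 0 was not tested against genes of like length. These cadherins mark subsets of neurons and circuits in the nervous system. Cdh22, a cadherin of the brain and pituitary (chromosome 2, 165111501 to 165234924), had a peak on each side. The one of 398 bp (165248872 to 165249269) was centred 14.1 kb upstream of the gene, and the one of 662 bp (165096135 to 165096796) 15.0 kb downstream, being the widest of the 12 peaks. Cdh20 (chromosome 1, 104768340 to 104995481) had 1 peak (104746829 to 104747215, 387 bp), centred 21.3 kb upstream. For Cdh20 and Cdh22 no other protein-coding gene was nearer to these peaks.

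The other 11 type II genes had no peak within 50 kb. Cdh5, the cadherin of blood vessel endothelium, was 106 kb from the nearest peak, Cdh11 143 kb and Cdh8 396 kb. Cdh6, which marks a subset of retinal ganglion cells, was 6858 kb away, the farthest of all members. Cdh6, Cdh9 and Cdh10 lay together in a stretch of 16.04 Mb of chromosome 15 between neighbouring peaks of the list, and Cdh12 and Cdh18 in another of 5.67 Mb. Cdh7 and Cdh19 shared a stretch of 7.84 Mb on chromosome 1. These 7 type II genes thus fell in 3 gaps of the list.

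Among the 5 other Cdh genes, Cdh13 and Cdh23 had peaks, 2 of the 3 being within 1 kb of an end of another gene. Cdh13 encodes T-cadherin, which is held to the membrane by a lipid anchor and has no cytoplasmic tail. It spans 1185 kb of chromosome 8 (118140017 to 119324929) and held 0 peaks inside. Its neighbouring peaks were 38.5 kb beyond the low end (118101397 to 118101666, 270 bp) and 19.6 kb beyond the high end (119344341 to 119344622, 282 bp). The second was centred 56.5 bp from an end of Hsbp1, which encodes a protein that binds heat shock factor, and it is the peak over the Hsbp1 window shown above. Cdh17, a cadherin of liver and intestine, Cdh26 and Cdh16, a kidney cadherin, were 96.9, 199 and 351 kb from a peak.

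Cdh23 and Pcdh15 encode the partners that join to form the tip links of hair cells, and in humans mutations in either cause Usher syndrome, a disease of hearing and sight. Each held 1 peak inside. The Cdh23 peak (chromosome 10, 60347398 to 60347574) was 177 bp wide. That is the smallest width on chromosomes 1 to 19 and X, and it also occurred among the peaks outside the member windows. The Cdh23 peak lay 11.4% of the way along the gene from its low-coordinate end, which is the downstream end of this minus-strand gene. The same peak was inside Vsir, an immune receptor gene nested in Cdh23, and was centred 635 bp from an end of Vsir. The Pcdh15 peak (chromosome 10, 74387578 to 74388086, 509 bp) lay 83.1% of the way along that gene of 1554 kb, and the nearest end of any annotated gene was 251 kb off.

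Apart from Pcdh15, no single protocadherin had a peak within 50 kb. Pcdh8, Pcdh17 and Pcdh20, at 71.9, 75.1 and 75.1 kb, were the members just beyond that distance, while the Pcdhg genes at 38.3 kb were just within it. Pcdh9, of 879 kb, was 325 kb from its nearest peak, and Pcdh7, of 417 kb, was 714 kb from it. Pcdh10, Pcdh18 and Pcdh19, members of the delta protocadherin group that regulate adhesion and neuronal circuits, were 1242, 625 and 1809 kb away. Pcdh11x was 6603 kb away, Pcdh1 306 kb and Pcdh12, a protocadherin of endothelium, 387 kb.

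**Figure D1:**
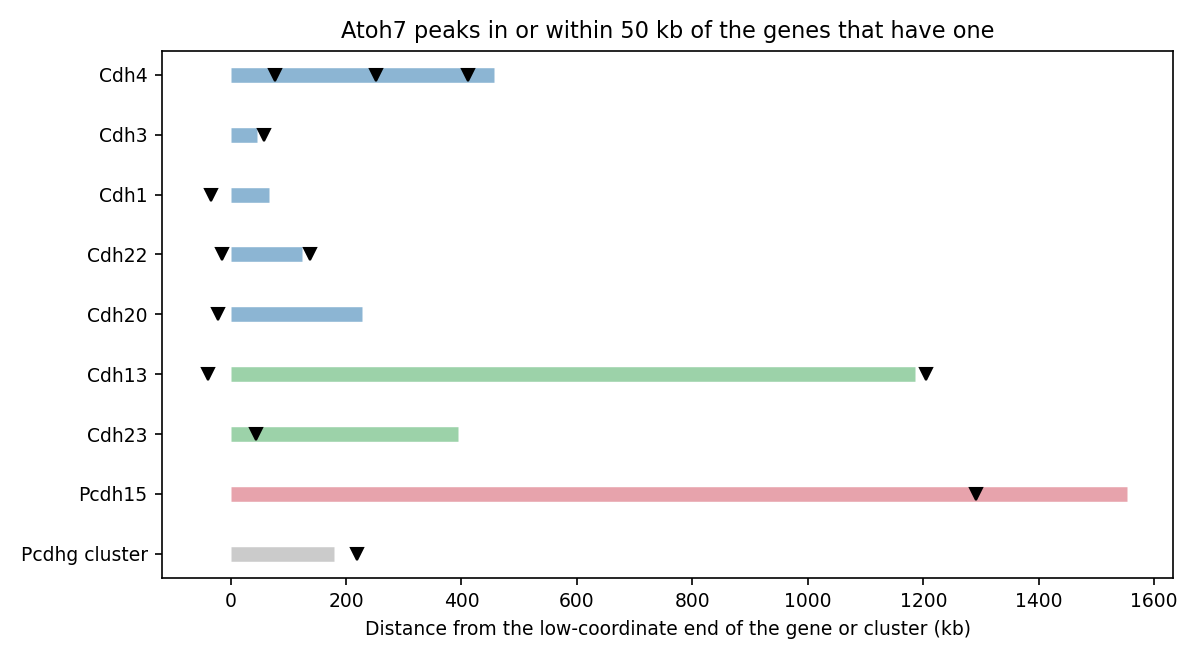
Positions of peaks (triangles) in or within 50 kb of each gene that has one, in kb from the low-coordinate end. Bars are genes, drawn to scale, with classical cadherins in blue, other Cdh genes in green, Pcdh15 in red and the span of the Pcdhg cluster in grey. Only Cdh4 (3), Cdh23 (1) and Pcdh15 (1) have peaks on the bar, and the Cdh1 and Cdh3 rows show the same peak.

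The clustered protocadherins on chromosome 18 (36930285 to 37841873, 912 kb) held 0 peaks. This was true of the Pcdha span (14 genes, 259 kb), the Pcdhb span (22 genes, 256 kb) and the Pcdhg span (21 genes, 180 kb). The list has 109 peaks on chromosome 18. The nearest peak on the low side was 643 kb from the Pcdha end, and the nearest on the high side 38.3 kb from the Pcdhg end (37879980 to 37880271, 292 bp). That single peak lay inside Diaph1, which encodes an actin-nucleating formin, and it put all 21 Pcdhg genes in the count of genes with a peak within 50 kb. The Pcdha and Pcdhg genes share their downstream exons, so their annotated bodies overlap and their counts are not separate observations. The promoters of the clusters are not analysed here.

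The count of genes with a peak was therefore set by how the clusters are counted. Within 50 kb, 29 of 92 members had a peak (31.5%), against 24.4% of all protein-coding genes. Outside the clusters it was 8 of 35 (22.9%), a share near that background. By class the counts were 5 of 18 classical cadherins, 2 of 5 other Cdh genes, 1 of 12 single protocadherins and 21 of 57 clustered genes, the last all through 1 peak. With the peak inside the gene, the counts were 3 of 35 outside the clusters (8.57%) and 0 of 57 in them, against 7.17% of all protein-coding genes. No test was made between the classes, since members share peaks and windows and there is 1 list.

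Gene length changes the reading of these shares, because the cadherin genes are long. The median length was 123 kb for members outside the clusters, against 17.3 kb for all protein-coding genes. Among genes over 500 kb, 1 of 6 members held a peak inside (Pcdh15, while Cdh12, Cdh13, Cdh18, Pcdh9 and Pcdh11x held 0), against 105 of 220 other genes (47.7%). From 200 to 500 kb it was 2 of 6 (Cdh4 and Cdh23), against 248 of 750 other genes (33.1%). From 50 to 200 kb it was 0 of 13, against 581 of 3914 (14.8%), and below that it was 0 of 8 from 10 to 50 kb, against 486 of 8934 (5.44%), and 0 of 2 under 10 kb, against 128 of 7717 (1.66%). Below 50 kb the background share is so low that 0 is near it. The members from 200 to 500 kb were thus close to genes of their length, and those from 50 to 200 kb and over 500 kb had lower shares, each from few members.

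**Figure D2:**
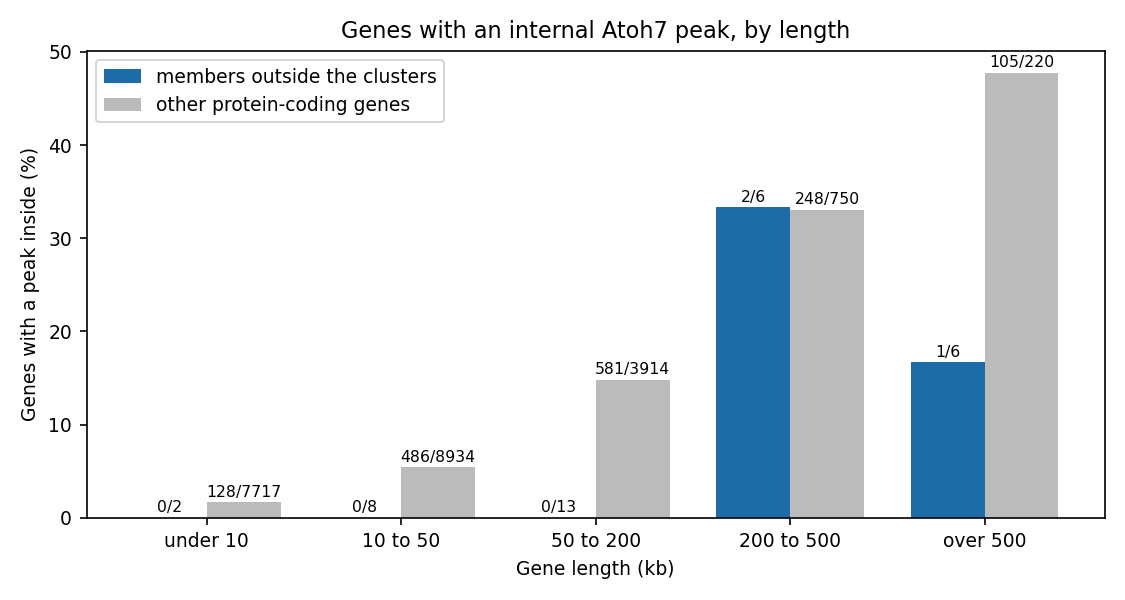
Share of genes with a peak midpoint inside, in percent, by gene length in kb, for the 35 members outside the chromosome 18 clusters (blue) and all other protein-coding genes (grey). Numbers on the bars are genes with a peak over genes in the bin. The shares are alike at 200 to 500 kb (2 of 6 and 248 of 750) and lower for members above 500 kb (1 of 6 and 105 of 220).

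Counted per length of sequence, with each peak and each base counted once, the family had fewer peaks than genes at large. Inside members there were 5 peaks over 10.6 Mb, or 0.472 per Mb (95% exact Poisson interval 0.153 to 1.10), against 1.93 per Mb inside other protein-coding genes (1.84 to 2.01). With 50 kb on each side, members had 12 peaks over 14.5 Mb, or 0.830 per Mb (0.429 to 1.45), against 1.82 per Mb (1.76 to 1.89) around other genes. The intervals treat peaks as independent and cover counting error only, and they did not overlap for either measure. Peaks per Mb also fell with gene length in other genes, to 1.06 per Mb (0.917 to 1.22) inside those over 500 kb, where the 6 members had 0.158 per Mb (0.00401 to 0.882). At 200 to 500 kb the 6 members outside the clusters had 1.897 per Mb (0.517 to 4.86), against 1.805 per Mb (1.64 to 1.99) inside other genes, so that the lower density did not hold at that length. From 50 to 200 kb the 13 members outside the clusters had 0 peaks in 1.44 Mb. The upper bound there, 2.56 per Mb, lies above the 2.015 per Mb of other genes, so a lower density was not resolved. The members over 500 kb made up 6.32 of the 10.6 Mb, so the family density rests largely on them.

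The classes differed in these densities by amounts that their intervals do not separate. Classical cadherins had 7 peaks with 50 kb flanks, or 1.11 per Mb (0.446 to 2.29), other Cdh genes 3, or 1.35 per Mb (0.279 to 3.95), and single protocadherins 1, or 0.202 per Mb (0.00511 to 1.13). The chromosome 18 clusters had 1 peak in 0.971 Mb (1.03 per Mb, 0.0261 to 5.74) and 0 in their gene bodies, for which the upper bound was 7.17 per Mb. That bound lies above the rate of other genes, so that a lower density in the clusters was not detectable with this number of peaks. Within the classical cadherins, type I had 3 peaks inside 0.809 Mb (3.71 per Mb, 0.764 to 10.8), all of them in Cdh4, and type II had 0 in 3.76 Mb (upper bound 0.982 per Mb). The type II bound lies below the 1.84 to 2.01 per Mb of other protein-coding genes. It also lies below those from 50 to 200 kb (1.872 to 2.165) and from 200 to 500 kb (1.64 to 1.99). It falls within the 0.917 to 1.22 per Mb of those over 500 kb, but only Cdh12 and Cdh18 of type II are that long. The type II density was not tested against genes with the same mix of lengths.

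**Figure D3:**
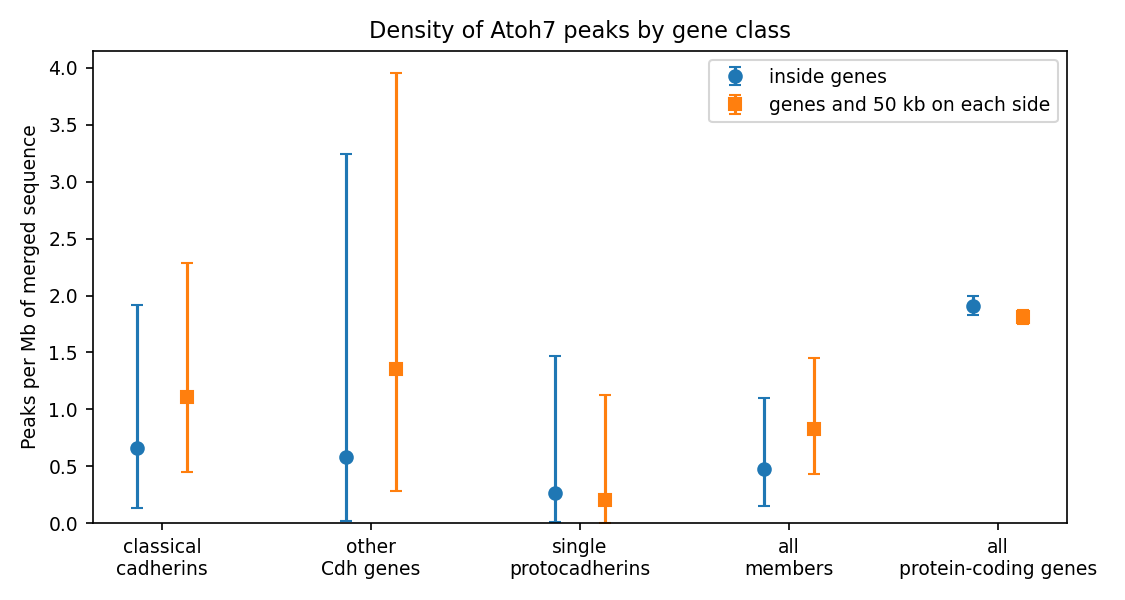
Atoh7 peaks per Mb of merged sequence, inside genes (circles) and with 50 kb on each side (squares), with 95% exact Poisson intervals. All members together had 0.472 per Mb inside and 0.830 per Mb with flanks, below all protein-coding genes at 1.91 and 1.81 per Mb, and the classes overlap each other.

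Single genes were set against a negative binomial fit of peak count on window length over all 21627 genes. No member had more peaks than its length predicts at an adjusted p of 0.05 (Benjamini-Hochberg over all genes), and over all genes 2 (0.00925%) did. The genes Atoh7, with 4 peaks against 0.274 fitted, and Dll1, with 4 against 0.288, did not pass either. With so few peaks per gene hardly any gene could pass, so this result says little about the members. At an unadjusted p under 0.05, 0 members and 516 of all genes were above the fit. By the exact upper tail of the fitted distribution, Cdh4 came closest, with 3 peaks against 0.841 fitted (p = 0.099, adjusted p = 1), followed by Cdh22 with 2 against 0.461 (p = 0.10, adjusted p = 1). Cdh13, with 2 against 1.46, and Cdh23, with 1 against 0.777, were near the fit. The largest shortfalls were at genes with 0 peaks: Cdh12 (1.43 fitted), Cdh18 (1.26) and Pcdh9 (1.22). A gene with 0 peaks could not pass in the exact lower tail of the fitted distribution, where Cdh12 had the smallest p of any member (p = 0.44) and 0 genes of the whole table (0.0%) passed or had an unadjusted p under 0.05.

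Summed over the 35 members outside the clusters, 12 peak assignments were observed against 21.3 fitted from length. Classical cadherins had 8 against 10.6, other Cdh genes 3 against 3.28 and single protocadherins 1 against 7.43. These sums are a description of the members, with no test. Gene density around the members varied by class. The median number of other protein-coding genes centred within 1 Mb was 46 for classical type I, 1 for type II, 27 for other Cdh genes, 1.5 for single protocadherins and 88 for the clusters, against 29 for all protein-coding genes. With gene density added to the fit, the fitted sum was 60.9 for all members, against 44.4 from length alone. It was lower than from length alone for classical cadherins (7.63) and single protocadherins (6.10), and higher for other Cdh genes (5.12) and the clusters (42.0, against 23.1 from length and 21 observed). The 57 clustered genes lie within 912 kb, so most of the 88 genes around them are other clustered genes. Their raised sum, and that of all members, includes this self-counting, and the 21 observed are 1 peak counted for each Pcdhg gene. The part of the surroundings in the counts was not tested further.

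**Figure D4:**
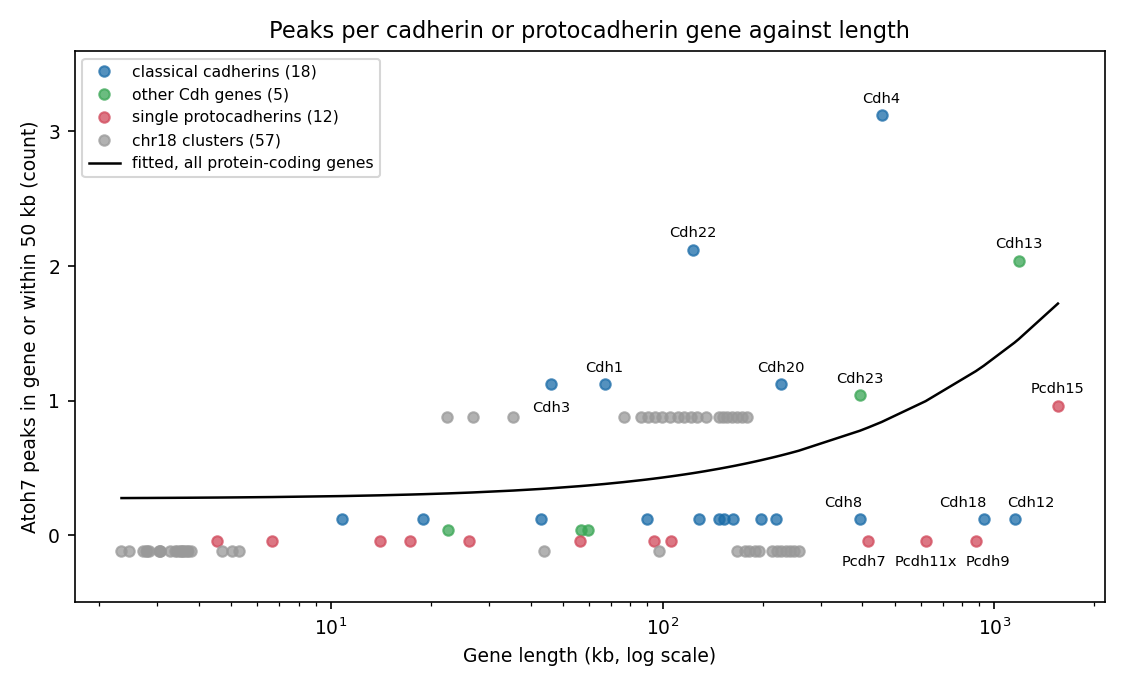
Peaks in each gene or within 50 kb (count) against gene length in kb on a log scale, for the 92 members coloured by class, with the count fitted from length over all protein-coding genes (line). Points of a class are shifted slightly up or down so that they do not overlap. Cdh4 (3 peaks) and Cdh22 (2) lie farthest above the line, and Cdh12, Cdh18 and Pcdh9 (0) farthest below.

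Distance to the nearest peak needs no limit of 50 kb. The median was 298 kb for classical cadherins, 96.9 kb for other Cdh genes, 356 kb for single protocadherins and 404 kb for the clusters, against 208 kb for other protein-coding genes. Of the 35 members outside the clusters, 19 had no peak within 200 kb, a share near the 50.9% of all protein-coding genes. Within 1 Mb, 9 of the 35 had none, against 15.1% of all protein-coding genes. Of those 9, 6 were classical cadherins, all of type II (Cdh6, Cdh7, Cdh9, Cdh10, Cdh18 and Cdh19), and 3 were single protocadherins (Pcdh10, Pcdh11x and Pcdh19). Several of the 6 are neighbours, so they are not separate observations.

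**Figure D5:**
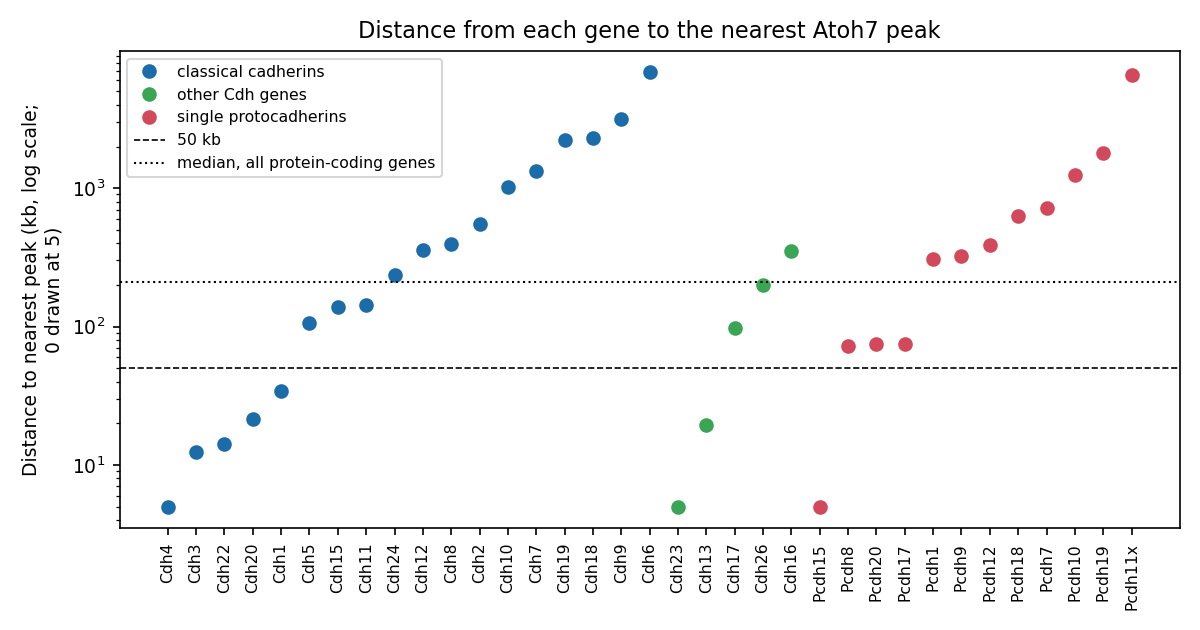
Distance from each of the 35 members outside the clusters to the nearest Atoh7 peak, in kb on a log scale, with a distance of 0 drawn at 5. Cdh4, Cdh23 and Pcdh15 hold a peak, 8 genes lie below the dashed line at 50 kb, and Cdh6 and Pcdh11x are farthest, at 6858 and 6603 kb.

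The running numbers in the peak names have gaps, whose origin is not given in the labels or the file. The numbers rise along each of the 20 chromosomes up to 7185, and 51.1% are present. Between the kept peaks on either side, no number was absent at Cdh3, Cdh15, Cdh20, Cdh24, Pcdh17 and Pcdh20, that is at 6 of the 35 members outside the clusters (17.1%), against 21.0% of other protein-coding genes. At Cdh13, 2 numbers were absent between its flanking peaks, which lie 1243 kb apart with the gene taking up nearly all of the distance. At Cdh22, 1 number was absent between peaks 153 kb apart. Around Cdh23, 8 were absent, around Pcdh9, Cdh12 and Cdh18 it was 6, and around the chromosome 18 clusters 3 within 1593 kb. An absent number gives no position, and whether it was ever a peak, or lay inside a gene, is unknown.

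The 12 peaks were narrower than the rest, with a median of 287 bp (177 to 662 bp), against 381 bp for the other 3650 peaks. They lay farther from annotated gene ends, with 2 of 12 (16.7%, at Vsir and Hsbp1) within 1 kb of one, against 26.5% of the other peaks, and a median of 16.8 kb against 7.22 kb. Both differences rest on 12 peaks and were not tested. Of the 12, 10 had a member as a nearest protein-coding gene, 1 of them (Cdh23) jointly with Vsir.

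Genes that work with cadherins were looked at in the same way. Of the 7 catenin genes, which encode the proteins that tie classical cadherins to actin, 4 had a peak within 50 kb (57.1%, beside 24.4% of all genes). Ctnna1 and Ctnna2, which encode the epithelial and neural alpha-catenins, each held 1 inside, Ctnna2 being 1098 kb long. Ctnnb1, which encodes beta-catenin, had 1 at 29.8 kb, and Jup, which encodes plakoglobin, had 1 at 16.8 kb. Ctnna3, Ctnnd1 and Ctnnd2 had 0. Together the catenin genes had 4 peaks, against 5.83 fitted from length. Of 26 further genes of the cadherin superfamily (Celsr, Fat, Dchs, Cdhr, calsyntenin and desmosomal cadherin genes), 2 had a peak (7.69%): Clstn2, a calsyntenin gene of 589 kb, inside the gene, and Cdhr3 at 29.9 kb. These had 2 peaks, against 10.6 fitted from length. The desmosomal Dsc and Dsg genes had 0. All of them are neighbours on chromosome 18, 357 to 954 kb from the nearest peak, so they are not separate observations.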

How the data were processed

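The 3 libraries of retina at embryonic day 14 (2 Atoh7, 1 IgG) were grouped by title. Per the submitters' processing notes, the authors used mm10 and MACS2 2.2.7.1, Bowtie2 2.3.5, Picard 2.0.1, bedtools and SAMtools, with neither order nor settings stated. The table as deposited holds peak positions and widths, counted from 1, per the file headers, and every peak name begins with Atoh7_R1. The sources used here do not say how replicate 2 and IgG entered the list.

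Gene ends, symbols and promoter sequences came from RefSeq tables of GRCm38.p6, the same assembly as mm10. Peaks on chromosomes 1 to 19 and X were used (3662), leaving out 6 others. The pseudogene Pcdhgb8 was left out of the 93 matching symbols. Peak counts per window were fitted with negative binomial regression on log window length, with one-sided p-values adjusted by Benjamini-Hochberg and a threshold of 0.05. Those p-values describe how peaks fall among genes in 1 list, with no measure of variation between animals. The script was checked on simulated data. Named were members with a peak inside, with 2 or more peaks in the window or past the fit, and a set of 15 retinal and well-known cadherin genes, and further members named after their values were seen. Members and lists were chosen with earlier results of these data known. The software was statsmodels 0.14.6, matplotlib 3.10.9, scipy 1.17.1, pandas 2.3.3, numpy 2.4.6 and Python 3.11.15.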

Additional observations from a re-analysis of the deposited data

How the results depend on the processing

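Of 67 alternative values, 50 were within 1.5 times the reported count or within the 95% Poisson interval of the reported density, and 17 moved beyond that. The intervals are wide, so that densities inside them also shifted: with a flank of 100 kb single protocadherins had 0.661 peaks per Mb, and with a flank of 10 kb other Cdh genes had 0.550 and classical cadherins 0.609. With a flank of 10 kb, 3 members had a peak in place of 29, with 1 classical cadherin, 1 other Cdh gene and 0 clustered genes, and the clusters had 0 peaks per Mb, as they did without flanks. With a flank of 100 kb, 4 single protocadherins had a peak. Counting nearest genes only, 7 members and 0 clustered genes had one. With the wider 50% of the peaks (381 bp or more), 4 members had a peak, 3 of them classical, 0 other Cdh genes (inside or within 50 kb) and 0 clustered genes. The densities were then 0.346 per Mb for all members and 0 for other Cdh genes and the clusters. The shorter and longer flanks, the narrower choice of peaks and the nearest-gene assignment each change which peaks are counted for a gene by construction, and no other cause was tested. Under the Poisson fit, which called 27 of all genes, and every other upper-tail fit tried, 0 members passed. With the wider 50% of the peaks 1 member had an unadjusted p under 0.05. The share of all genes at that setting was not counted, and in the main fit it was 0 members and 516 of 21627 genes. The lower tail, also among the 50 values, is a different test that no gene with 0 peaks could pass. The fit with gene density and the lower tail were added after the data were seen. With 12 peaks, differences between classes were beyond what the list can resolve. No paired analysis was possible because the list has no value per library.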
